A study of Rattus norvegicus with 38 samples.

Results

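The ribosomal protein genes of rat liver are described here across LPS and extract treatments. The members are all gene names of the count table that consist of Rps or Rpl, a number and at most 1 of the letters a, x, y and l. This rule found 77 of 31038 gene names, of which 31 encode proteins of the small subunit and 46 proteins of the large subunit. It leaves out the stalk proteins Rplp0, Rplp1 and Rplp2, the small subunit protein Rpsa, and pseudogene and L1 names, which were followed as a separate list.

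RNA was sequenced from 38 livers of Sprague-Dawley rats, an outbred laboratory strain, collected on day 28. LPS, lipopolysaccharide from the outer membrane of gram-negative bacteria and an inflammatory stimulus, was given intraperitoneally in 4 groups. LPS alone was given to 5 rats (LPS), with EF to 5 rats (LPS_EF), with EF and PF to 4 rats (LPS_EF_PF) and with EF and RD to 5 rats (LPS_EF_RD). The groups without LPS are EF_PF (n = 5), EF_RD (n = 4), EF (n = 5) and control (n = 5). EF, PF and RD are extracts given by gavage, EF and PF at 2.5 g/kg each and RD at 200 mg/kg, and neither PF nor RD was given without EF. The labels give no age, no LPS dose and no time between injection and collection.

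A ribosome is built from ribosomal RNA and one copy of most ribosomal proteins, so the genes of the family are expressed together in growing and secreting cells. Most of their mRNAs begin with a run of pyrimidines at the transcription start, the terminal oligopyrimidine (TOP) motif, through which mTORC1 signalling controls their translation. The liver makes most plasma proteins and depends on a large pool of ribosomes.

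The start regions of members that the results below turn on are shown to compare their pyrimidine runs. Each is 30 bases of the RefSeq annotation of build GRCr8, from 15 bases before to 15 bases from the transcription start onward, 5′ to 3′ on the gene's strand, and capitals mark the longest run of C and T inside the 30 bases where it has at least 5.
Rps2 (chr10:14251833-14251862, plus strand): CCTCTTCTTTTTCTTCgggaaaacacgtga
Rpl10 (chrX:157205835-157205864, plus strand): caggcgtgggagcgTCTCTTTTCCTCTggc
Rps26 (chr7:1643390-1643419, minus strand): gagagccgccgggTCCTCTTTCgagtcttg
Rpl5 (chr14:1995211-1995240, minus strand): aCTCTCTTTCCCacgtcgcttgcgtcctgg
Rpl3 (chr7:113507976-113508005, minus strand): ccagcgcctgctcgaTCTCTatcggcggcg
Rps12 (chr1:23500060-23500089, plus strand): gcacagaagcccagcagagcgcttaaatac

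RefSeq start regions were matched by symbol for 60 of the 77 members, with 61 regions in all, and the other 17 members had no matched region. A run of at least 8 pyrimidines within 25 bases on either side of the start was present in 48 of the 61 regions (78.7%), against 6485 of 33469 regions of all genes (19.4%). The letters CTTTCC, searched in the same window, were found on the gene's strand in 17 member regions (27.9%), against 733 regions of all genes (2.19%). On the other strand they were found in 1 member region (1.64%), against 748 regions of all genes (2.23%). Rpl3 and Rps12 were among the members with no such run.

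Read pairs assigned to genes numbered 19716622 to 35835012 per library, and the members took 0.617% to 1.14% of them. After the filter on low counts 71 members were tested, 29 of the small and 42 of the large subunit. Hepatocyte is the labelled cell type, although no isolation step is described. The 10 hepatocyte markers summed to 124452 to 204924 CPM (counts scaled to a common library size with TMM) over the 38 libraries, and markers of Kupffer cells and white blood cells were also present. LPS_EF 7 and LPS_EF_RD 6 had 5.84 and 6.90 CPM of A2m, an acute-phase protein gene of rat liver, against 84.2 to 344 CPM in the other LPS-injected livers. Skeletal muscle markers summed to 4898 CPM in EF_RD 1 and 489 CPM in LPS 3 and to at most 3.34 CPM elsewhere. Exocrine pancreas markers summed to 3348 CPM in control 5, 1942 CPM in LPS 3 and 123 CPM in EF_RD 1, and to at most 21.4 CPM elsewhere. The fits of the members' levels were repeated without LPS_EF 7 and LPS_EF_RD 6, without LPS 3 and EF_RD 1, and without the last pair and control 5.

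Of the 6 members that did not pass the filter, Rpl8 and Rpl35a had 0 counts in all libraries, although both are core proteins of the large subunit. Over all 38 libraries, Rps6, the substrate of S6 kinase, had 38 counts and Rps9 had 105 counts. Read pairs placed at several sites were not counted under the authors' settings, and the part this had in the low counts was not tested. Rps19, whose name stands on chromosomes 1 and 9 in the table, had 4374 counts and passed the filter. Counts of members with close copies elsewhere are uncertain in the same way. The remaining 2 members under the filter were the paralogs Rpl39l, expressed in testis in mouse, with 21 counts, and Rpl3l, the striated-muscle paralog of Rpl3, with 566 counts.

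The levels of the tested members spanned a wide range on the authors' deposited TPM scale, which is corrected for length. Rps2, at the mRNA entry channel of the small subunit, was highest at 1111 ± 138 TPM (SD over 38 libraries). Rpl10, a late-joining protein of the large subunit, followed at 1052 ± 93.0 TPM, and the ranges of both over libraries overlapped. Rpl7a came next at 611 ± 96.8 TPM. The median of the 71 tested members was 325 TPM, with quartiles of 193 and 404 TPM. X-linked Rps4x had 528 ± 88.2 TPM. The lowest tested members were Rpl39 at 56.2 ± 11.1 TPM, the Rpl10 paralog Rpl10l at 7.93 ± 3.79 TPM and Rps19 at 7.60 ± 2.13 TPM, and Rpl30 at 58.6 ± 28.8 TPM and Rps27l, the paralog of Rps27, at 62.7 ± 13.1 TPM were the next above them.

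Within groups, the members varied about as much as other genes. The median within-group SD of log2(CPM + 0.5) was 0.20 over the 71 members and 0.23 over all 14786 genes tested. Rpl10 had the lowest SD of the members at 0.11, and Rpl30 the highest at 0.57.

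Both subunits moved together across libraries. The small subunit members summed to 2450 to 4158 CPM and the large subunit members to 3843 to 6471 CPM. The large subunit sum was 1.50 to 1.66 times the small subunit sum in every library, a span of 1.11-fold, whereas the sum of both spanned 1.67-fold (6294 to 10528 CPM). That sum averaged 8734 ± 558 CPM in LPS livers and 7533 ± 874 CPM in control livers (SD, n = 5 each). It averaged 9539 ± 900 CPM in LPS_EF livers (n = 5) and 7955 ± 1334 CPM in EF livers (n = 5). In LPS_EF_PF livers it was 9390 ± 546 CPM (n = 4), against 8367 ± 641 CPM in EF_PF livers (n = 5). LPS_EF_RD livers had 9047 ± 1334 CPM (n = 5), against 7545 ± 713 CPM in EF_RD livers (n = 4). The ranges of the paired groups overlapped in all 4 arms. The lowest sums of the LPS_EF and LPS_EF_RD groups, 8240 and 7161 CPM, belonged to LPS_EF 7 and LPS_EF_RD 6.

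**Figure D1:**
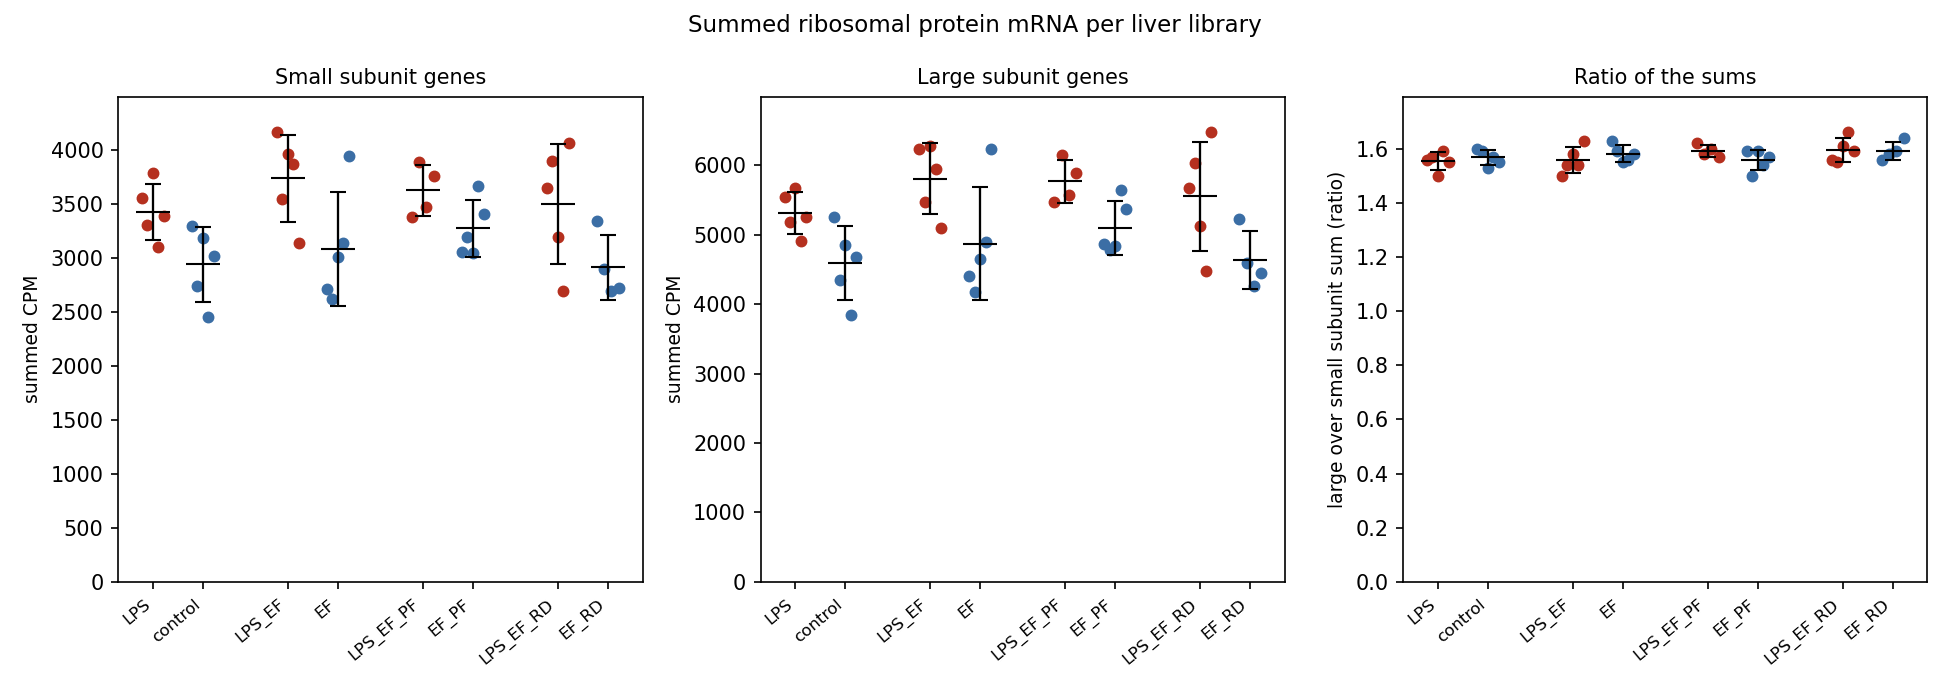
Summed CPM of the small subunit members, of the large subunit members, and the ratio of the sums, by group, with 1 point per liver and the mean ± SD in black. The mean sums are higher in each LPS group (red) than in the group without LPS beside it (blue), with overlapping ranges, and the ratio lies between 1.50 and 1.66 in every library.

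The first question of the layout is what LPS does to the family. Averaged over the 4 arms (LPS against control, LPS_EF against EF, LPS_EF_PF against EF_PF and LPS_EF_RD against EF_RD), 60 of the 71 members were higher with LPS and 0 were lower (edgeR quasi-likelihood test, Benjamini-Hochberg adjusted p under 0.05 over all 14786 genes). Of all genes tested, 29.6% were called higher and 31.8% lower in this comparison. Among the small subunit members 26 of 29 were called, and among the large subunit members 34 of 42. The change was small, with a median log2 fold change of 0.23 (17.4%) over the members and -0.023 over all genes tested. The fold change was above 0 in all 4 arms for 64 of the 71 members, and the share of all genes was not computed. The number of members called was 66 without LPS_EF 7 and LPS_EF_RD 6, and 60 both without LPS 3 and EF_RD 1 and with control 5 left out as well.

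**Figure D2:**
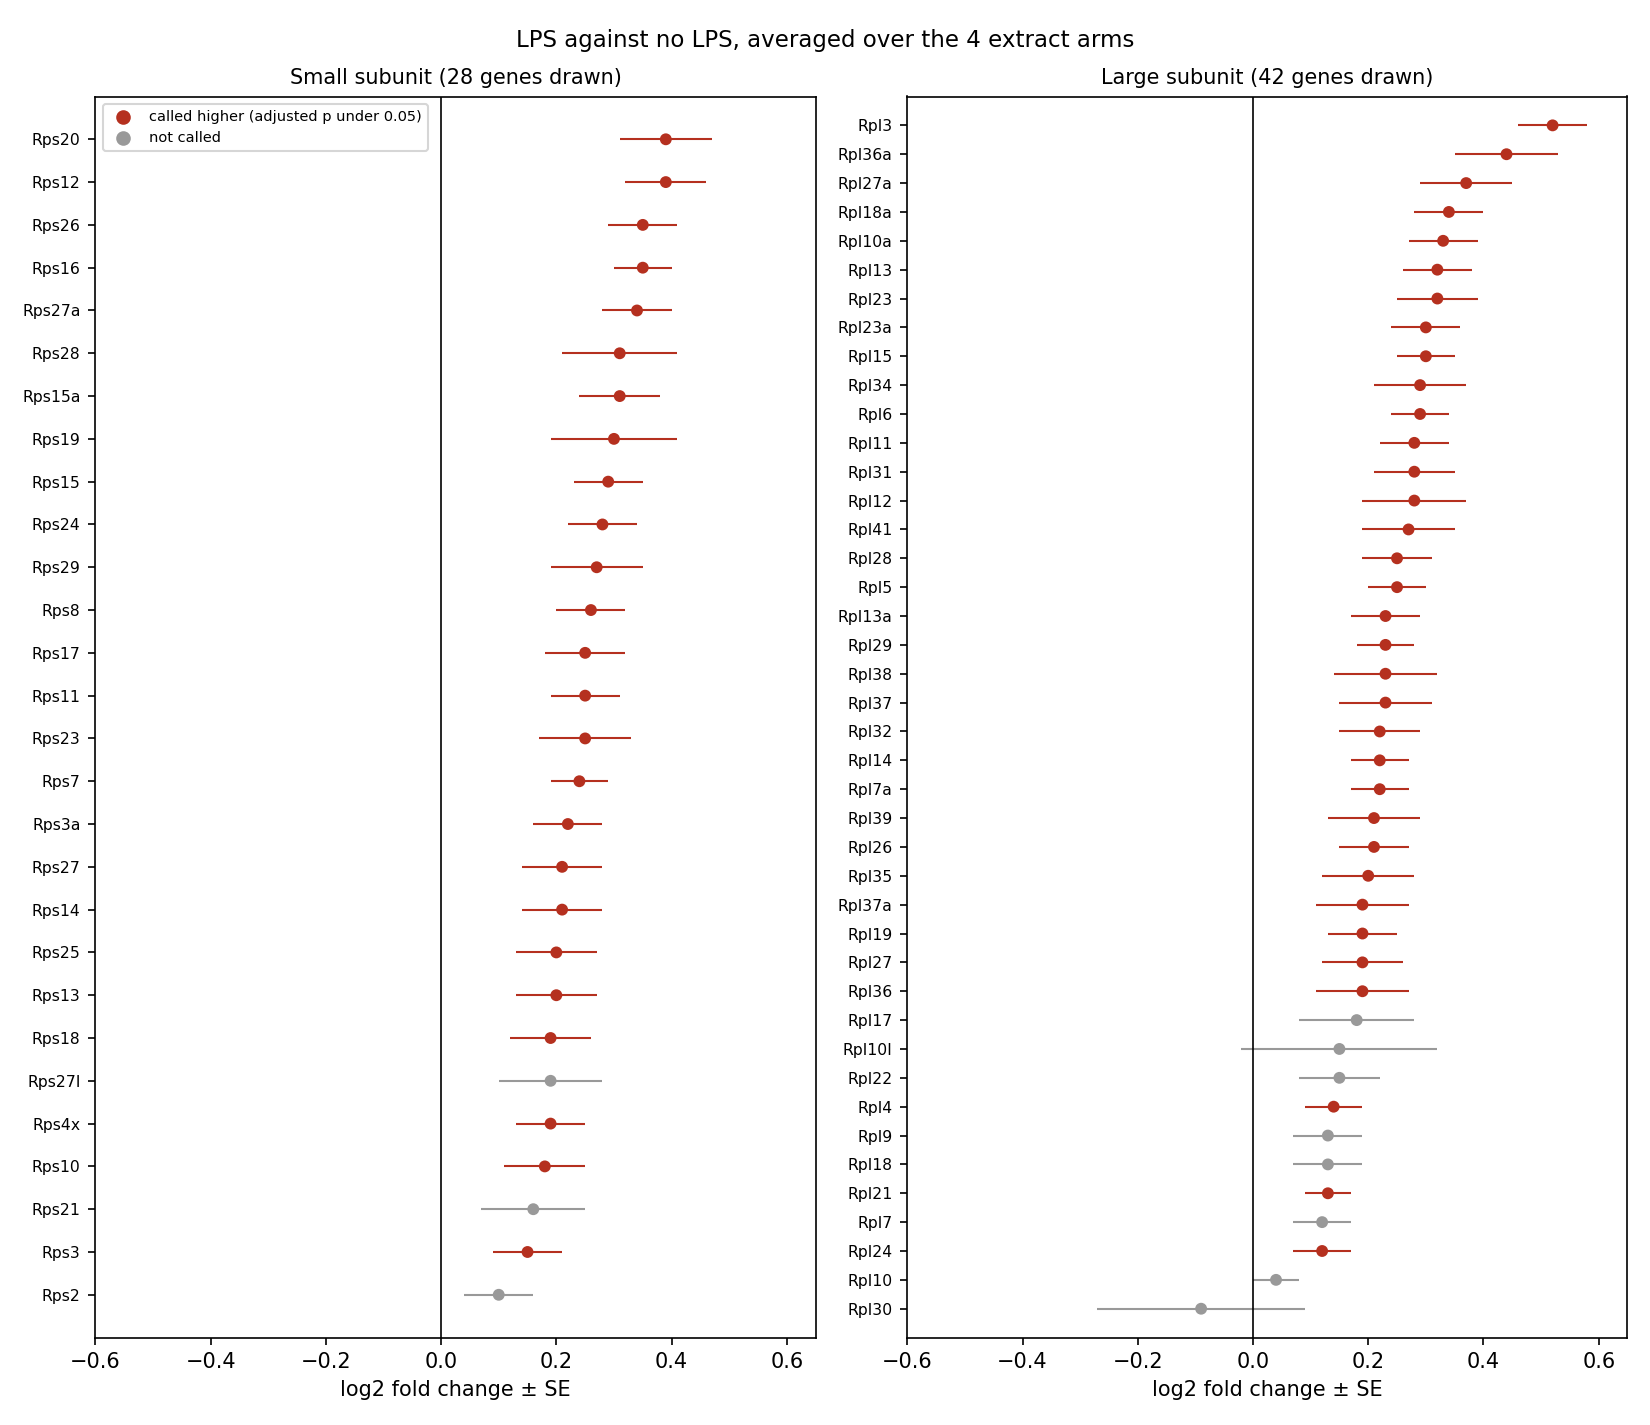
Log2 fold change ± SE of each tested member for LPS against no LPS, averaged over the 4 arms, with small subunit genes on the left and large subunit genes on the right. Red points were called higher, 1 of the 71 tested members is not drawn, and the grey points include Rps2, Rpl10 and Rpl30 at the low end.

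Markers of other cells moved in the same comparison. Of the neutrophil and monocyte markers 13 of 13 were called higher (median log2 fold change 2.65), of the lymphocyte markers 14 of 16 (1.17) and of the Kupffer cell and macrophage markers 10 of 11 (1.12). Hepatocyte markers were called lower for 8 of 10 (median -0.32). With total counts as library size 6 of them were lower and 2 higher (median -0.21, against 0.084 over all genes). The neutrophil and monocyte markers summed to 97.5 to 503 CPM in the LPS-injected groups and 24.6 to 183 CPM in the groups without LPS. Their part in the change of the ribosomal protein genes was not tested. In bulk tissue a change in the share of a cell type cannot be told apart from a change in RNA per cell.

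Rpl3, which shapes the peptidyl transferase centre of the large subunit, had the largest change averaged over the 4 arms. In the count table it lies at chr7:121297365-121302739, minus strand, of build rn6. Rpl3 had 387, 343, 386, 334 and 370 CPM in LPS livers, against 296, 231, 265, 195 and 241 CPM in control livers. All LPS livers were above all control livers. Rpl3 had 403, 351, 411, 408 and 266 CPM in LPS_EF livers, against 270, 262, 278, 260 and 328 CPM in EF livers. Here the groups overlapped, through the 266 CPM of LPS_EF 7 and the 328 CPM of EF 5. In LPS_EF_PF livers Rpl3 had 389, 391, 355 and 395 CPM, against 257, 252, 241, 297 and 251 CPM in EF_PF livers, with no overlap. In LPS_EF_RD livers it had 321, 402, 337, 258 and 418 CPM, against 301, 214, 209 and 224 CPM in EF_RD livers, and only the 258 CPM of LPS_EF_RD 6 fell within the EF_RD range. The log2 fold changes were 0.57 ± 0.12, 0.40 ± 0.12, 0.56 ± 0.13 and 0.55 ± 0.13 (SE) in these 4 arms, all called. In the last arm the call was lost with only the groups compared in the fit (edgeR adjusted p = 0.0586). Averaged over the arms, Rpl3 was 1.43-fold higher with LPS (log2 0.52 ± 0.06, edgeR adjusted p = 1.98e-08).

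Rps16, a small subunit protein whose C-terminal tail contacts transfer RNA in the peptidyl site, was called in 3 arms. Rps16 had 105, 106, 116, 94.9 and 102 CPM in LPS livers, against 93.5, 83.7, 89.0, 73.4 and 91.2 CPM in control livers. It had 130, 115, 131, 126 and 110 CPM in LPS_EF livers, against 74.1, 70.0, 88.0, 89.3 and 101 CPM in EF livers. The groups did not overlap in either of these arms, in the first by a margin of 94.9 to 93.5 CPM. Rps16 was the one member with that separation in the EF arm. With EF and PF its groups overlapped, at 109 to 138 CPM in LPS_EF_PF livers and 94.5 to 110 CPM in EF_PF livers. With EF and RD they also overlapped, at 87.4 to 136 CPM in LPS_EF_RD livers and 84.0 to 108 CPM in EF_RD livers. The average log2 fold change was 0.35 ± 0.05 (edgeR adjusted p = 1.64e-06).

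Rpl15, a large subunit protein needed for ribosomal RNA processing, was with Rpl3 one of the 2 members called in all 4 arms. Rpl15 had 105, 118, 128, 104 and 120 CPM in LPS livers, against 106, 87.1, 98.0, 76.0 and 93.0 CPM in control livers. The groups overlapped by the 106 CPM of control 3. Its average log2 fold change was 0.30 ± 0.05 (edgeR adjusted p = 2.67e-06).

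Other members with known roles were in the same direction. Rpl5 and Rpl11, which with 5S ribosomal RNA bind the p53 regulator Mdm2, had average log2 fold changes of 0.25 ± 0.05 and 0.28 ± 0.06. Rps27a, made as a fusion with ubiquitin, was called in 3 arms, as were Rpl5, Rpl6, Rpl13, Rpl27a, Rpl36a, Rps12, Rps16, Rps20 and Rps26. In all, 37 of the 71 members were called in 0 arms, 14 in 1 arm, 7 in 2 arms, 11 in 3 arms and 2 in 4 arms. The matching counts over all genes were not computed, so these numbers have no background. X-linked Rps4x had an average log2 fold change of 0.19 ± 0.06 and was called.

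The 11 members that were not called over the average were Rps2, Rps21, Rps27l, Rpl7, Rpl9, Rpl10, Rpl10l, Rpl17, Rpl18, Rpl22 and Rpl30. Rpl10 had 389, 385, 456, 407 and 410 CPM in LPS livers, against 501, 401, 427, 370 and 449 CPM in control livers. The groups overlapped, and the average log2 fold change was 0.04 ± 0.04 (edgeR adjusted p = 0.358). Rps2 had 581, 545, 599, 507 and 558 CPM in LPS livers, against 630, 442, 571, 430 and 548 CPM in control livers, with overlap. Its average log2 fold change was 0.10 ± 0.06 (edgeR adjusted p = 0.141). Both most abundant members thus fell short of the call with TMM scaling, and both were called higher with total counts as library size (log2 0.15 for Rpl10 and 0.21 for Rps2), under which the median of all genes was 0.084. Rps2 was also called without LPS_EF 7 and LPS_EF_RD 6 (log2 0.13, edgeR adjusted p = 0.0481), as were Rps27l (log2 0.25, edgeR adjusted p = 0.00220) and Rpl7 (log2 0.14, edgeR adjusted p = 0.0257). Rpl7, a large subunit protein, lay next to the threshold (log2 0.12 ± 0.05, edgeR adjusted p = 0.0530). It was called with RLE scaling (edgeR adjusted p = 0.0443), with total counts as library size (0.000682) and in DESeq2 (adjusted p = 0.0435). It was also called without LPS 3 and EF_RD 1 (edgeR adjusted p = 0.0480), and with control 5 left out as well (0.0318). Rpl24, which joins the large subunit late, was called by a small margin (log2 0.12 ± 0.05, edgeR adjusted p = 0.0479). Its call was lost without LPS 3 and EF_RD 1 (edgeR adjusted p = 0.0730), with control 5 left out as well (0.0681), and in 27 of 38 fits without 1 library (up to 0.113). Rps27l was also called with RLE scaling (edgeR adjusted p = 0.0491) and with total counts as library size (0.00417).

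The make-up of the family was compared with the summed count of the members as library size, so that a change is relative to the family. Of the 71 members 13 were higher and 8 were lower with LPS over the average of the arms, and 70.2% of all genes tested were called in that fit. With this library size the median log2 fold change was -0.25 over all genes and 0.01 over the members. The 70.2% is therefore no background for the members. The adjustment ran over all genes tested, so the weaker member calls depend on the many calls among other genes. The shift within the family was led by Rpl3, with a log2 change of 0.29 ± 0.04 (edgeR adjusted p = 3.96e-07). Rpl3 took 3.97% ± 0.285 of the member counts with LPS and 3.26% ± 0.278 without (SD, n = 19 each). Rps12, in the beak of the small subunit, changed by 0.16 ± 0.04, and Rpl36a, a large subunit protein near the exit site of transfer RNA, by 0.22 ± 0.05 on that log2 scale. The members that fell relative to the family included Rpl10, which had 4.74% ± 0.417 of the member counts with LPS and 5.36% ± 0.355 without (log2 -0.18 ± 0.04, edgeR adjusted p = 0.000501). Rps2 had 6.20% ± 0.252 with LPS and 6.78% ± 0.332 without (log2 -0.13 ± 0.04, edgeR adjusted p = 0.00193). Rpl24 and Rpl7 were lower by the same measure, at -0.10 ± 0.03 and -0.11 ± 0.04. Rpl24 and Rpl10 are thus lower within the family, while their own levels had fold changes above 0. Leaving out each library in turn gave 18 to 22 such calls.

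**Figure D3:**
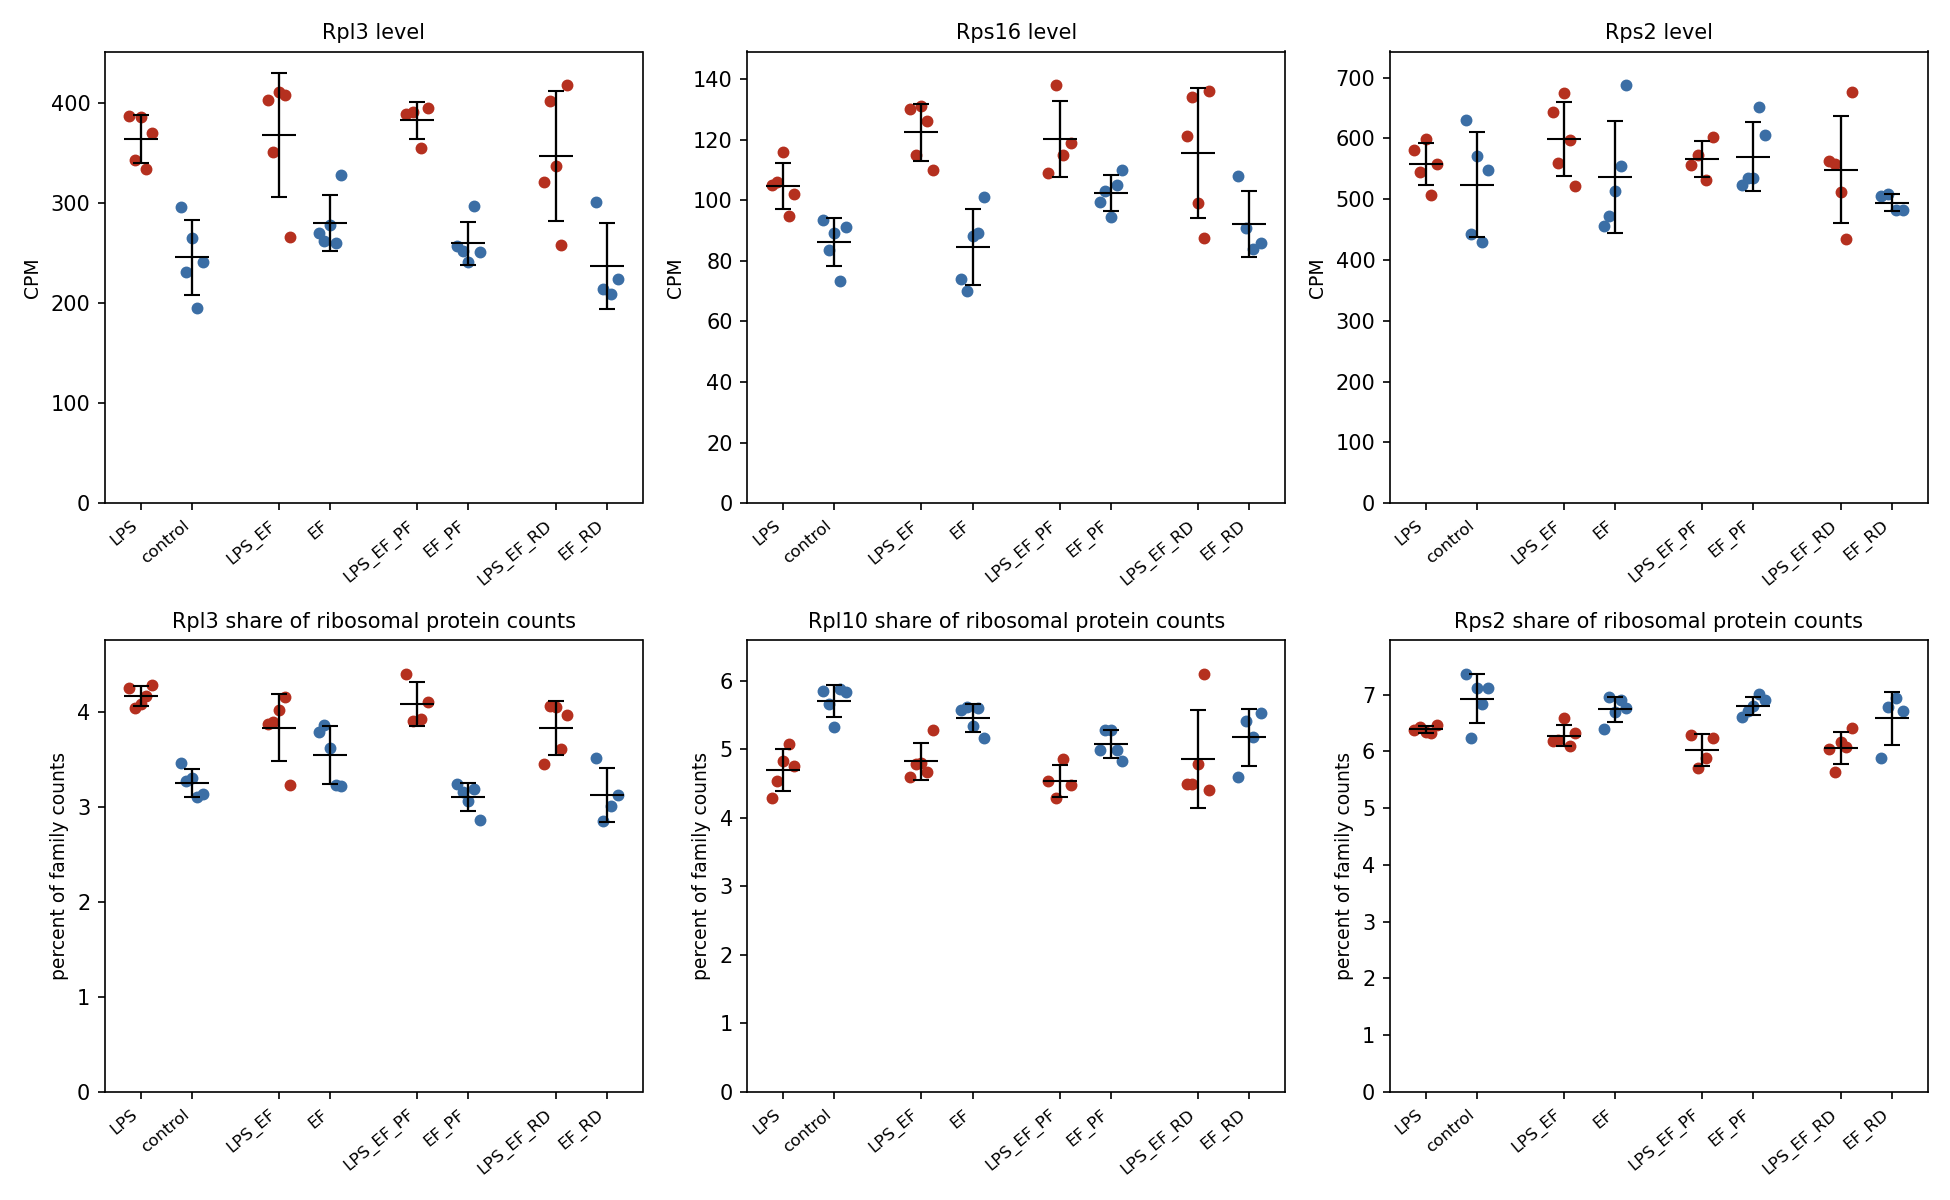
CPM of Rpl3, Rps16 and Rps2 (top) and the share of the member counts, in percent, of Rpl3, Rpl10 and Rps2 (bottom), with 1 point per liver and the mean ± SD in black. Rpl3 is higher in LPS groups (red) than in groups without LPS (blue) in level and in share, with means of 3.97% and 3.26% of the member counts, and the shares of Rpl10 and Rps2 are lower in LPS groups on average.

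Members with and without a pyrimidine run near the annotated start were called about as often. A run could lie anywhere within 25 bases on either side of that start. Some runs, such as that of Rpl5, lie before it and outside the annotated mRNA. The split is therefore not one of mRNAs with and without a TOP motif. Of the 44 tested members with a run of at least 8 bases, 38 were called higher over the average of the arms, with a median log2 fold change of 0.23. Of the 12 tested members with a matched region and no such run, 10 were called higher, with a median of 0.24. The difference was not tested. The 2 windows printed above without a run of 8 are those of Rpl3 and Rps12. Their average log2 fold changes were 0.52 ± 0.06 and 0.39 ± 0.07, and both were called higher. Among the printed members with such a run, Rps26 and Rpl5 were called higher, and Rps2 and Rpl10 were not called.

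Taken arm by arm, the number of members called varied. Against control livers, 19 of 71 members were higher in LPS livers and 0 were lower, while 18.6% of all genes were called higher and 18.1% lower. The share of members called higher was 26.8%, but it was 12.7% against 16.7% of all genes without LPS 3 and EF_RD 1. The median log2 fold change of the members was 0.23, against -0.002 over all genes. Every LPS liver was above every control liver for 15 members, and for 12.5% of all genes. The number of members called was 12 without control 4, 6 without control 6 and 7 without LPS 1. It was 12 without LPS 2, 8 without LPS 3, and 9 without control 5, LPS 3 and EF_RD 1. Rps26, a small subunit protein near the mRNA exit, had 83.8, 87.2, 85.0, 66.2 and 72.0 CPM in LPS livers, against 58.5, 56.9, 61.6, 44.7 and 65.9 CPM in control livers. The groups did not overlap, by a margin of 66.2 to 65.9 CPM, and the log2 fold change was 0.46 ± 0.12 (edgeR adjusted p = 0.00441).

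In EF-treated rats, 30 members were higher in LPS_EF livers than in EF livers and 0 were lower, while 14.6% of all genes were called higher and 14.5% lower. The median log2 fold change was 0.30, against -0.020 over all genes. Only Rps16 had every LPS_EF liver above every EF liver, which 4.99% of all genes did. With only the groups compared in the fit, 4.23% of the members and 9.28% of all genes were called higher. EF 5 stood high in this arm, and without it 56 members were called. The count was 15 without EF 1, 9 without EF 2, 14 without EF 3, 16 without LPS_EF 3, 14 without LPS_EF 5 and 18 without LPS_EF 6. Rpl10a, in the stalk that releases transfer RNA, had 111, 88.6, 98.4, 96.0 and 77.8 CPM in LPS_EF livers, against 60.0, 53.6, 68.5, 69.3 and 79.5 CPM in EF livers. Its groups overlapped by the lowest LPS_EF liver and the highest EF liver, and the log2 fold change was 0.51 ± 0.12 (edgeR adjusted p = 0.00129). Rps12 was also among the strongest here, with a log2 fold change of 0.53 ± 0.13 (edgeR adjusted p = 0.00342).

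In rats given EF and PF, 6 members were higher in LPS_EF_PF livers than in EF_PF livers and 0 were lower, while 19.2% of all genes were called higher and 17.3% lower. The share of the members, 8.45%, lay under that background. It lay above it with only the groups compared in the fit (32.4% of the members and 24.1% of all genes) and with total counts as library size (43.7% and 27.2%). The median log2 fold change was 0.15, against -0.022 over all genes, and 7 members had every LPS_EF_PF liver above every EF_PF liver, against 19.5% of all genes. The number of members called was 3 without EF_PF 2, 3 without EF_PF 3, 3 without LPS_EF_PF 1 and 2 without LPS_EF_PF 6. Rpl5 (log2 0.30 ± 0.09, edgeR adjusted p = 0.0128) and Rpl6 (log2 0.31 ± 0.11, edgeR adjusted p = 0.0229) were among the 6. The Rpl6 call was lost without EF_PF 2, EF_PF 3, LPS_EF_PF 1 or LPS_EF_PF 6 (edgeR adjusted p of 0.0520 to 0.0642), and the Rpl5 call without LPS_EF_PF 6 (0.0702). Rpl10l, an intronless testis paralog of Rpl10 in mouse, had 8.28, 10.7, 5.62 and 10.1 CPM in LPS_EF_PF livers, against 5.78, 2.38, 3.26, 1.98 and 4.71 CPM in EF_PF livers. The groups overlapped slightly, and the log2 fold change was 1.26 ± 0.36 (edgeR adjusted p = 0.00608). In the other arms Rpl10l was not called, with log2 fold changes of 0.20 ± 0.33, -0.27 ± 0.34 and -0.58 ± 0.36, and its reads may be shared with close copies, so its level is uncertain.

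In rats given EF and RD, 14 members were higher in LPS_EF_RD livers than in EF_RD livers and 0 were lower, while 12.8% of all genes were called higher and 10.7% lower. The median log2 fold change was 0.28, against -0.022 over all genes, and 3 members had every LPS_EF_RD liver above every EF_RD liver, against 8.10% of all genes. The number of members called was 38 without LPS_EF 7 and LPS_EF_RD 6, 35 without LPS_EF_RD 6 alone and 25 without EF_RD 1. It was 2 without EF_RD 2, 2 without EF_RD 3, 2 without EF_RD 4, 5 without LPS_EF_RD 1, 2 without LPS_EF_RD 2 and 2 without LPS_EF_RD 8. Rps10, a small subunit protein at the mRNA entry, had a log2 fold change of 0.56 ± 0.15 (edgeR adjusted p = 0.00637), and Rpl29, a large subunit protein, one of 0.32 ± 0.11 (edgeR adjusted p = 0.0287). The Rpl29 call was lost without EF_RD 2, EF_RD 3, EF_RD 4, LPS_EF_RD 2 or LPS_EF_RD 8 (edgeR adjusted p of 0.0735 to 0.120) and with only the groups compared in the fit (0.112). In that fit 1.41% of the members and 8.15% of all genes were called higher.

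The 3 interactions, which test whether the LPS change differed with an extract, called 0 of the 71 members in edgeR and 0 in DESeq2. At an unadjusted p under 0.05 there were 0 members for EF, 1 for EF with PF and 1 for EF with RD. Of all genes tested, 0.108%, 0.0812% and 0.128% were called in these 3 interactions at adjusted p under 0.05. The share of all genes at the unadjusted threshold was not computed. The arms are thus not shown to differ in the LPS response of the members.

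The second question is what the extracts did to the family. EF_PF against control called 1 member, Rps26, which was higher, while 0.446% of all genes were called higher and 0.176% lower. Rps26 had 80.9, 73.1, 78.9, 89.0 and 91.7 CPM in EF_PF livers, against 58.5, 56.9, 61.6, 44.7 and 65.9 CPM in control livers. The groups did not overlap, and the log2 fold change was 0.52 ± 0.12 (edgeR adjusted p = 0.0353). The call was lost without control 3, control 4, control 6, EF_PF 1, EF_PF 3, EF_PF 5 or EF_PF 6, with adjusted p of 0.0518 to 0.107. In this comparison 23 members had an unadjusted p under 0.05, and the share of all genes at that threshold was not computed. The median log2 fold change of the members was 0.20, against -0.019 over all genes.

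In the other 9 extract comparisons 0 members were called by edgeR and 0 by DESeq2. Without LPS, 1 member had an unadjusted p under 0.05 in EF against control (0.920% of all genes called), 3 in EF_RD against control (1.52%), 8 in EF_PF against EF (0.162%) and 3 in EF_RD against EF (0.724%). With LPS there were 3 in LPS_EF against LPS (0.108%), 2 in LPS_EF_PF against LPS (0.0406%) and 5 in LPS_EF_RD against LPS (0.0135%). There was 1 in LPS_EF_PF against LPS_EF (0.00676%) and 2 in LPS_EF_RD against LPS_EF, where 0 genes of all were called. The percentages count genes called at adjusted p under 0.05, so they are no background for these unadjusted counts. The share of all genes at an unadjusted p under 0.05 was not computed. The medians over the members ran from -0.05 to 0.15 in these 9 comparisons. Comparisons against the same group share its livers.

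**Figure D4:**
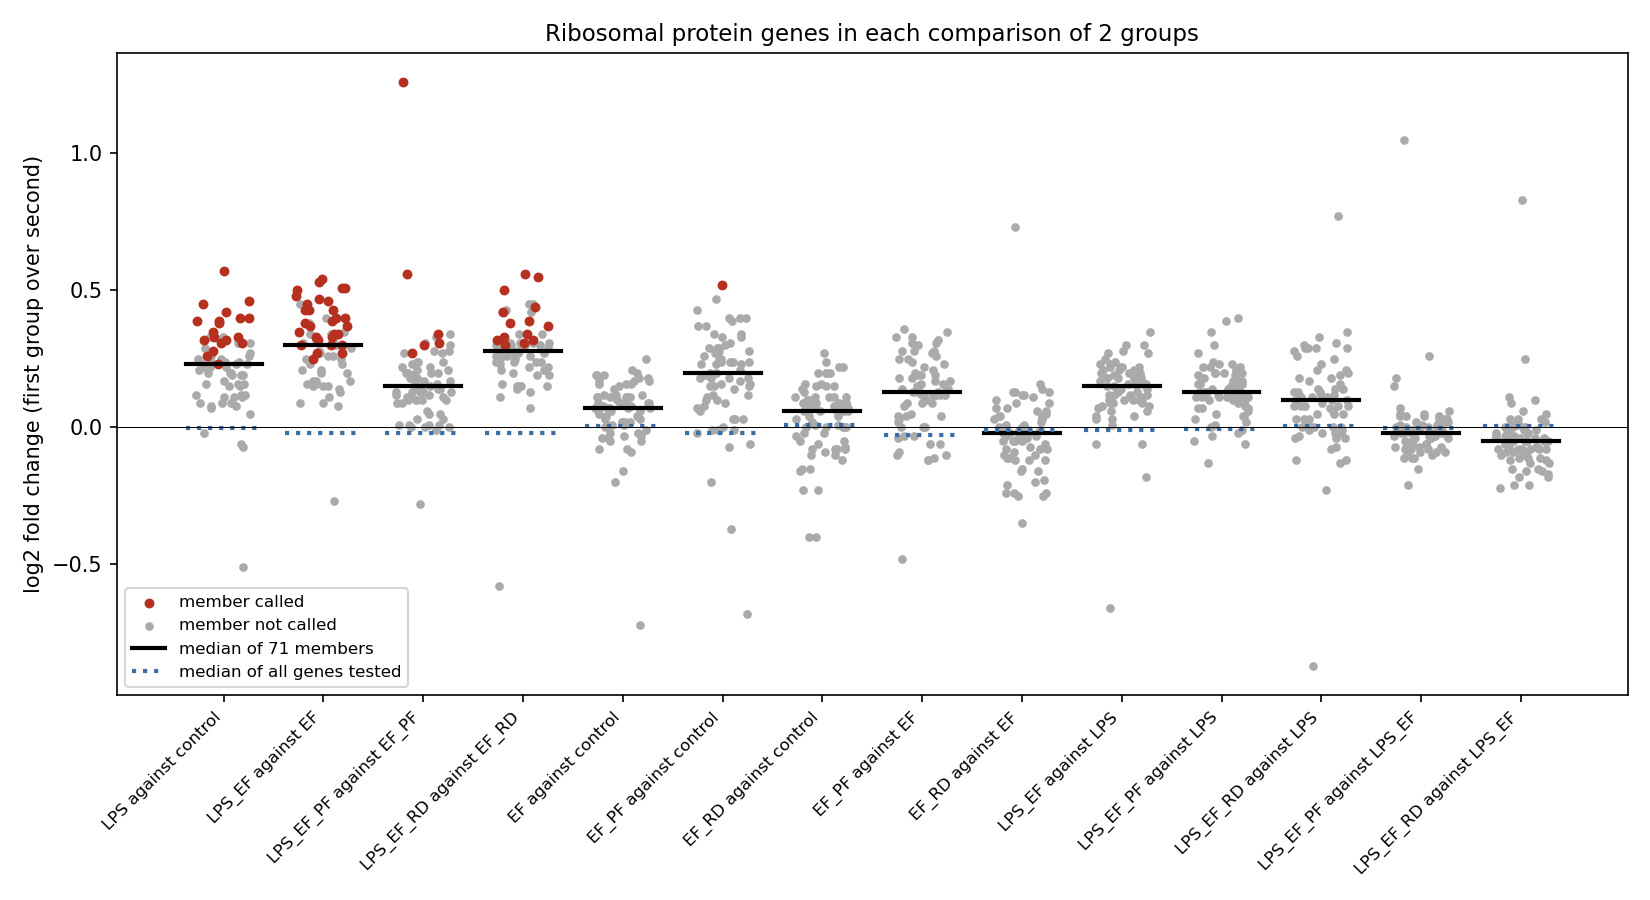
Log2 fold change of each of the 71 tested members (points, red where called) in the 14 comparisons of 2 groups, the first over the second, with the median of the members as a black bar and the median of all genes tested as a dotted blue bar. The 4 LPS comparisons on the left hold nearly all called members and have medians of 0.15 to 0.30, and Rps26 is the red point in EF_PF against control.

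Rpl30, a large subunit protein, was the most variable member and fell into separate levels. It had 22.3 to 36.1 CPM in 8 of the 38 libraries and 6.91 to 15.9 CPM in the other 30, a division at 20 CPM that was placed after its values were seen. The 8 libraries were 3 LPS_EF_RD, 1 EF_PF, 2 EF_RD and 2 control livers, so 3 had LPS and 5 did not. Rpl30 had 36.1, 11.6, 10.1, 22.3 and 24.8 CPM in LPS_EF_RD livers, against 11.2, 27.6, 6.91 and 24.5 CPM in EF_RD livers. The groups overlapped throughout, and over the average of the arms the log2 fold change with LPS was -0.09 ± 0.18 (edgeR adjusted p = 0.671).

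Rpl3l, the paralog that takes the place of Rpl3 in striated muscle, had 17.4 CPM in EF_RD 1 and 1.74 CPM in LPS 3, and 0 to 0.321 CPM in the other 36 libraries. EF_RD 1 and LPS 3 were also the libraries with skeletal muscle markers at 4898 and 489 CPM. Rpl3l did not pass the filter, and no test was made.

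**Figure D5:**
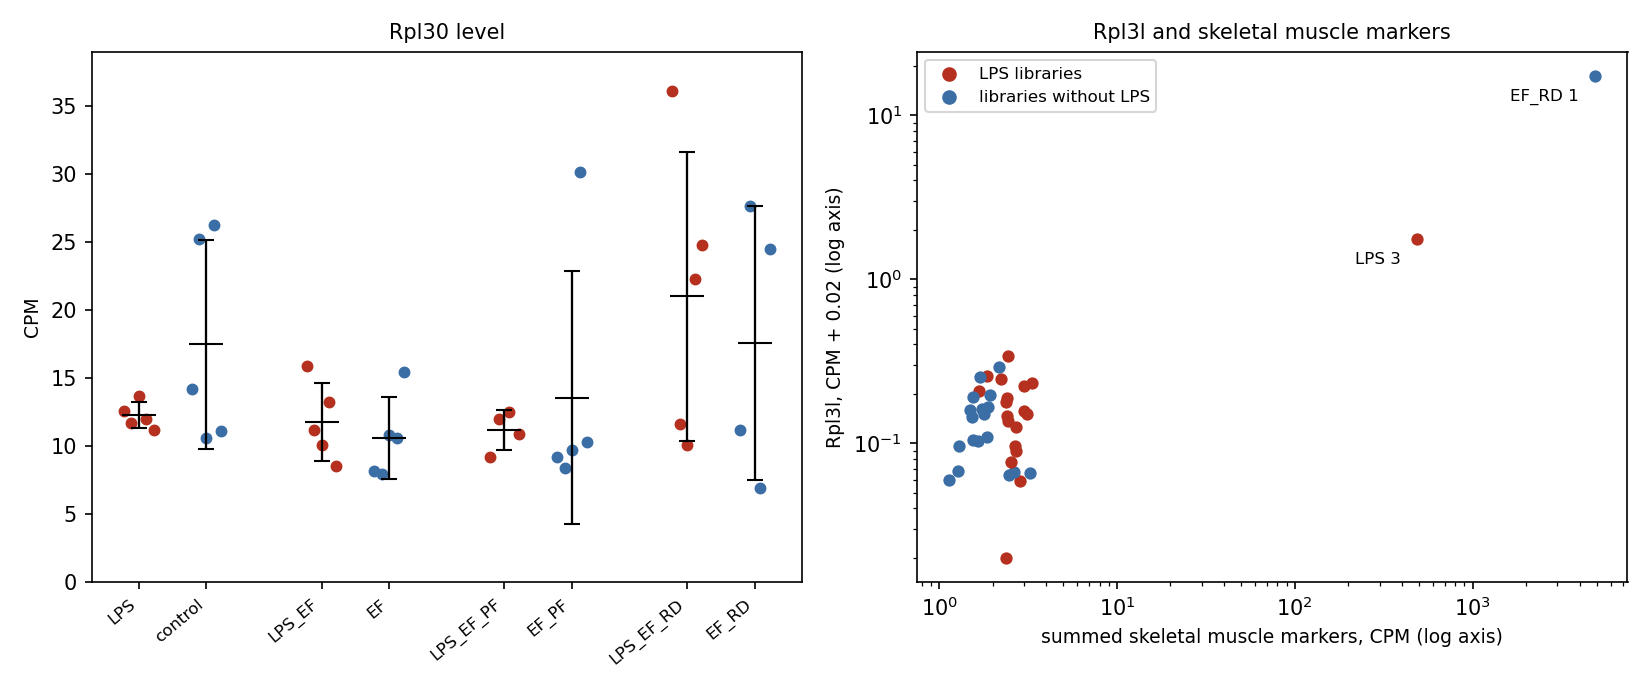
Rpl30 in CPM by group, with 1 point per liver and the mean ± SD in black (left), and Rpl3l in CPM + 0.02 against the summed CPM of the skeletal muscle markers, both on log axes (right). Rpl30 is above 20 CPM in 8 livers of 4 groups, and Rpl3l is highest in EF_RD 1 and LPS 3, which also have the most muscle marker RNA.

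The list of ribosomal proteins and their relatives outside the naming rule was mixed. Over the average of the arms 4 of 9 tested were higher and 1 was lower, with a median log2 fold change of 0.19. Of all genes tested, 29.6% were called higher and 31.8% lower. With total counts as library size 7 were higher and 1 was lower (median 0.29, against 0.084 over all genes). Rplp0, the base of the stalk that recruits elongation factors, had 0.43 ± 0.05, Rack1, a scaffold on the small subunit head, 0.35 ± 0.05, and Rpsa 0.25 ± 0.05. The 1 gene called lower was Rpl7l1, a nucleolar relative of Rpl7, at -0.30 ± 0.04.

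Genes for making ribosomes went the other way from the ribosomal protein genes. Of 49 tested ribosome biogenesis genes 42 were lower and 0 were higher with LPS (median log2 fold change -0.35), and 31.8% of all genes were called lower. Polr1b, a subunit of RNA polymerase I, had -0.70 ± 0.07, the processing factor Nop14 -0.54 ± 0.06 and Bop1 -0.48 ± 0.05. With total counts as library size 35 of the 49 were lower and 1 was higher. Summed over the list, LPS livers had 955 to 987 CPM and control livers 1147 to 1296 CPM, with no overlap. LPS_EF livers had 959 to 1237 CPM and EF livers 1181 to 1327 CPM, with overlap. The groups did not overlap with EF and PF (985 to 1060 against 1110 to 1249 CPM). Nor did they with EF and RD (932 to 1115 against 1210 to 1318 CPM).

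Genes of the mitochondrial ribosome were also lower on balance, with 39 of 73 lower and 3 higher (median -0.14). Over all genes tested 31.8% were called lower and 29.6% higher, the background for this list and for the translation factors. Mrpl15 had a log2 fold change of -0.66 ± 0.06 and Mrpl14 one of -0.64 ± 0.07, whereas Mrpl17 had 0.24 ± 0.05. With total counts as library size 19 were lower and 8 higher, with a median of -0.03 against 0.084 over all genes. The share of all genes called with that scaling is not given here. Translation factors were divided, with 23 of 39 lower and 8 higher (median -0.14), and with total counts as library size 14 were lower and 14 higher. The higher ones included Eef1b2 at 0.47 ± 0.06, Pabpc1 at 0.35 ± 0.04 and Eef1g at 0.30 ± 0.05, whose mRNAs are known to carry TOP motifs. The lower ones included Eif3j at -0.54 ± 0.05, Eif2s2 at -0.41 ± 0.04 and the cap-binding protein Eif4e at -0.40 ± 0.04.

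Genes of the mTORC1 pathway had 11 of 34 lower, or 32.4%, near the 31.8% of all genes called lower. Of the 34, 5 were higher, or 14.7%, against 29.6% of all genes. The median was -0.08, and 5 were lower and 8 higher with total counts as library size. Tsc1, an inhibitor of the pathway, had 0.42 ± 0.05, the S6 kinase gene Rps6kb1 -0.33 ± 0.04 and the activator Rheb -0.26 ± 0.03. Sesn3 and Lamtor3 were also called higher, at 0.34 ± 0.07 and 0.13 ± 0.04, and Rraga was called lower, at -0.28 ± 0.04. The activity of the pathway was not measured. The RNA polymerase I and Myc network list had 10 of 20 lower and 1 higher (median -0.23), and it shares Polr1b with the biogenesis list. Proliferation genes had 16 of 20 higher and 1 lower (median 0.83), led by the replication helicase gene Mcm3 at 1.52 ± 0.14. Erythroid markers had 2 of 6 higher and 0 lower, mitochondrially encoded genes 4 of 13 higher and 3 lower, and skeletal muscle (7 tested) and pancreas markers (9 tested) 0 called.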

How the data were processed

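Counts are whole read pairs per gene name. The authors counted them with featureCounts 2.0.6 on an rn6 RefSeq annotation, per the file headers, without strand and without a setting that would count read pairs placed at several sites. STAR, RSEM and the build mRatBN7.2 also stand in the submitters' processing notes, and positions are printed as rn6 because the count table's header names it. The authors' deposited TPM values were recomputed from counts and length for 31011 names, and over 432813 values of at least 1 the largest relative difference was 0.0495%. TPM was used only to order genes by level.

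Counts were tested with edgeR 4.0.16 (filterByExpr with minimum count 10 and total count 15, TMM, glmQLFit and glmQLFTest) in R 4.3.3, in 1 fit on 38 libraries and 14786 genes with 18 comparisons, two-sided, Benjamini-Hochberg adjusted within each. DESeq2 1.42.0 was the alternative. The fits were tested on simulated data. All libraries carry 1 batch label, and 0 columns were left unused. The design text calls the libraries biological replicates. Without molecular identifiers, read pairs are not independent molecules.

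The members and lists were chosen with earlier results of these data known. The members named are the 4 called with the smallest p per direction in each comparison and in the fit relative to the family total, the 3 highest and lowest in TPM, the paralogs and Rps4x, and those under the filter. From each list the 3 called with the smallest p per direction were eligible. Rpl30 and other members counted by call were named after their values were seen. Of the members the rule named, 1 is not reported here by name.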

Additional observations from a re-analysis of the deposited data

Results flagged for a closer look

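Of 208 sets of 4 or 5 livers examined, 11 held 1 liver far from the others of its group by Dixon's criterion, and chance gives about 1 in 20. Rpl3 was high in EF 5 at 328 CPM, in EF_PF 5 at 297 CPM and in EF_RD 1 at 301 CPM, and low in LPS_EF_PF 4 at 355 CPM. Rpl15 was high in EF 5 at 128 CPM and in EF_RD 1 at 115 CPM. Rpl5 was high in EF_PF 5 at 231 CPM, and Rpl39 in EF_PF 6 at 11.2 CPM. Rpl29 was low in LPS 4 at 79.3 CPM, against 92.6 to 97.2 CPM in the other LPS livers. Rpl3l was high in EF_RD 1 at 17.4 CPM and in LPS 3 at 1.74 CPM, the 2 libraries with skeletal muscle markers.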

How the results depend on the processing

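Over the average of the 4 arms, the number of ribosomal protein genes called with LPS was 59 to 69 under the other settings and 52 to 68 when 1 library was left out. Calls relative to the family total numbered 16 to 21 under other settings and 18 to 22 with 1 library left out. The arm counts moved more, and the cause was not tested. With total counts as library size they were 40 for LPS against control, 49 with EF, 31 with EF and PF and 29 with EF and RD, and the median of all genes was then 0.128, 0.062, 0.144 and 0.029. With only the groups compared in the fit they were 3 with EF, 23 with EF and PF and 1 with EF and RD, and EF_PF against control had 3. Without the low-count filter there were 19 with EF, 0 for EF_PF against control, and 1 each for EF_RD against control, EF_RD against EF and the interaction of LPS with EF and RD. Without LPS 3 and EF_RD 1 LPS against control had 9, and 9 without control 5 as well, an alternative chosen after seeing the data. Without LPS_EF 7 and LPS_EF_RD 6, also chosen after seeing the data, LPS_EF_RD against EF_RD had 38. Leaving out 1 library gave 6 to 23 for LPS against control, 9 to 56 with EF, 2 to 8 with EF and PF, 2 to 35 with EF and RD and 0 to 1 for EF_PF against control, and 0 in each other extract comparison and interaction. The mean summed level of LPS_EF_PF livers was 10133 CPM without TMM, against 9390 CPM with it. With the replicate block the counts were 7 for LPS against control, 12 with EF and PF and 2 with EF and RD. These were 9.86%, 16.9% and 2.82% of the members, under the 12.4%, 19.9% and 12.1% of all genes called higher. With EF the block gave 49.3% of the members and 17.4% of all genes. Under the block Rpl7 was called over the average (edgeR adjusted p = 0.0227), Rpl39 was not (0.0515), and with EF and RD neither Rpl29 (0.0606) nor Rps26 (0.0605) was. The numbers are not shown to pair the samples, since 0 of 12 same-numbered pairs had a correlation of deviations over 0.1 (-0.23 to 0.08), against 22 of 78 pairs with different numbers. Depth limits the members with fewest counts, such as Rps19 and Rpl10l. For single members with 1 library left out, 1049 values kept a call, 63 lost it, 16 gained one and 174 stayed without one, and 0 changed sign with a call.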
